A study of Rattus norvegicus with 32 samples.

Results

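The genes described here build the nuclear pore complex or carry cargo through it. They were taken from the array by gene name: the nucleoporins (Nup and Nupl genes with a number), the importins alpha and beta (Kpna and Kpnb), the other importins (Ipo), the exportins (Xpo), and Pom121, Rae1, Ranbp2, Seh1l, Sec13, Tpr, Aaas, Cse1l, Tnpo1 and Ran. This gave 47 of the 26583 gene names on the array, read by 59 of its 30367 probes, and Seh1l is the 1 name looked for that no probe carries. The choice used no measured value, but it was made with earlier results of these data known.

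C6, a glioma cell line of the rat, was left untreated (Control), was given angiotensin II (Ang II) at 100 nM, or was given Ang II after 30 min with 10 µM of Losartan (Los), an antagonist of the AT1 receptor, or of PD123319, an antagonist of the AT2 receptor. RNA of each of these 4 groups was taken at 3 h and at 6 h, with 4 replicates each, and the 32 samples each went on a 1-colour Agilent rat array of their own. The cells are 1 line, and the sources used here do not say that the replicates were separate cultures, so the p-values measure the spread between these samples. The 4 arrays of a slide hold the 4 groups of 1 replicate in the same order on every slide, so treatment and position on a slide cannot be told apart.

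Of the defining markers of glia and glioma, Vim, Nes, S100b, Cspg4 and Cnp were well above background on all 16 arrays of both times, and Gfap was so on 0 arrays at 3 h and on 2 at 6 h. The markers of other cells were mixed: Snap25 and Tubb3 of neurons and Aif1, Cd68 and Itgam of microglia were above background on all 16 arrays of both times, Cdh5 of endothelium was so on 12 at 3 h and 16 at 6 h and Kdr on 6 and 11, Syp of neurons on 1 and 5, and Ptprc, Pecam1 and Tek on none. In Ang II x Control none of the tested markers passed both limits (explained with the tests) at 3 h, and at 6 h Cnp was higher, at 0.43, and Tubb3 lower, at -0.72. Against Ang II alone, Cnp was lower with Losartan at 3 h, at -1.14, and S100b and Aif1 were higher with PD123319 at 6 h, at 0.28 and 0.39. The part of these markers in the results was not tested. Between 55.9% and 64.7% of the spots were well above background at 3 h, and between 64.2% and 79.8% at 6 h.

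The nuclear pore is a ring of nucleoporins set into the nuclear envelope. The Y complex and the inner ring form its scaffold, the central channel is filled with flexible repeats that stop large molecules, and filaments reach into the cytoplasm and a basket into the nucleus. Importin alpha reads the import signal of a cargo and binds to importin beta, other importins and the exportins bind cargo directly, and the small GTPase Ran loads and unloads them.

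The probes are 60 bases long, and a level rests on that short piece of a transcript. The probes of Nup107 (NM_053830, chr7:57068243-57068690) and Aaas (NM_001106795, chr7:141088704-141089042) are printed because these genes carry results at 6 h, those of Xpot (NM_001108102, chr7:60922626-60922685) and Xpo5 (NM_001108789, chr9:10304032-10304091) because each is the second of 2 probes of its gene, and that of Kpna6 (NM_001015029, chr5:148783613-148783672) because it disagreed with the other probe of Kpna6 at 3 h. The positions are those of the file headers on rn4, all of these lie on the minus strand, and the sequences run 5′ to 3′ as the array design gives them.

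Nup107: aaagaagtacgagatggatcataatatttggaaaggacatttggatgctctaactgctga
Aaas: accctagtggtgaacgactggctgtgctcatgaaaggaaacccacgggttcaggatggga
Kpna6: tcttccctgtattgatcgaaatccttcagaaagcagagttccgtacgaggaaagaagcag
Xpo5: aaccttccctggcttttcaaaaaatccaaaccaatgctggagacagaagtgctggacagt
Xpot: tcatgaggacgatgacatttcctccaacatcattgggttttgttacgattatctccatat

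The probe of Nup107 covers 448 bases of the genome and that of Aaas 339, both more than its own length, while those of Kpna6, Xpo5 and Xpot cover 60 each.

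The signal was put on a log2 scale and normalized among the 16 arrays of a time, so that a difference of 1 between groups is a doubling. Probes entered the tests if the scanner software called them well above background in the whole of any group. This kept 43 of the 47 genes at 3 h, among 13630 genes in all, and 45 at 6 h, among 16446. Kpna7 and Xpo7 were kept at neither time, and Kpna5 and Nupl2 at 6 h only. All probes kept were well above background on all 16 arrays for 38 of the genes at 3 h and for 44 at 6 h. The exceptions were Ipo7, Kpna6, Nupl1, Ran and Ranbp2 at 3 h and Xpo6 at 6 h, and Ipo7 and Ran have no value in Control replicate 1 at 3 h. Groups were compared within slides by limma, and a gene is said to pass both limits when its unadjusted p is under 0.05 and its fold change above 1.2 or below 0.8. The adjusted p is that of Benjamini and Hochberg over all genes tested.

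The genes differed widely between slides of the same treatment. Over the 4 Control arrays, the median SD of the pore and transport genes was 0.35 at 3 h and 0.30 at 6 h, beside 0.34 and 0.31 over all genes tested. In 42 of 43 genes at 3 h and in 44 of 45 at 6 h, the Control arrays spanned a wider range than the size of the Ang II x Control difference. The exceptions were both exportins, Xpo5 at 3 h and Xpo6 at 6 h. This count was not made over all genes, whose SD was close to that of these, so it marks no trait of the pore and transport genes. At 3 h the widest spread was that of Xpot, the exporter of transfer RNA, with 7.70, 9.28, 10.06 and 9.71 in Control replicates 1 to 4 (SD 1.04). Nup107, a scaffold protein of the Y complex, had 7.53, 6.44, 5.25 and 6.34 there, and Kpna2, an importin alpha, had 13.56, 12.59, 11.44 and 12.94. Xpot was thus highest on the slide where Nup107 and Kpna2 were lowest. The slide of replicate 3 held the lowest mean over the 4 groups for 20 of the 43 genes, beside 30.8% of all genes, and the slide of replicate 1 the highest for 20, beside 31.4%. At 6 h, the slide of replicate 3 held the highest mean for 22 of 45 genes, beside 25% of all genes, and the lowest for 1, beside 20.6%.

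**Figure D1:**
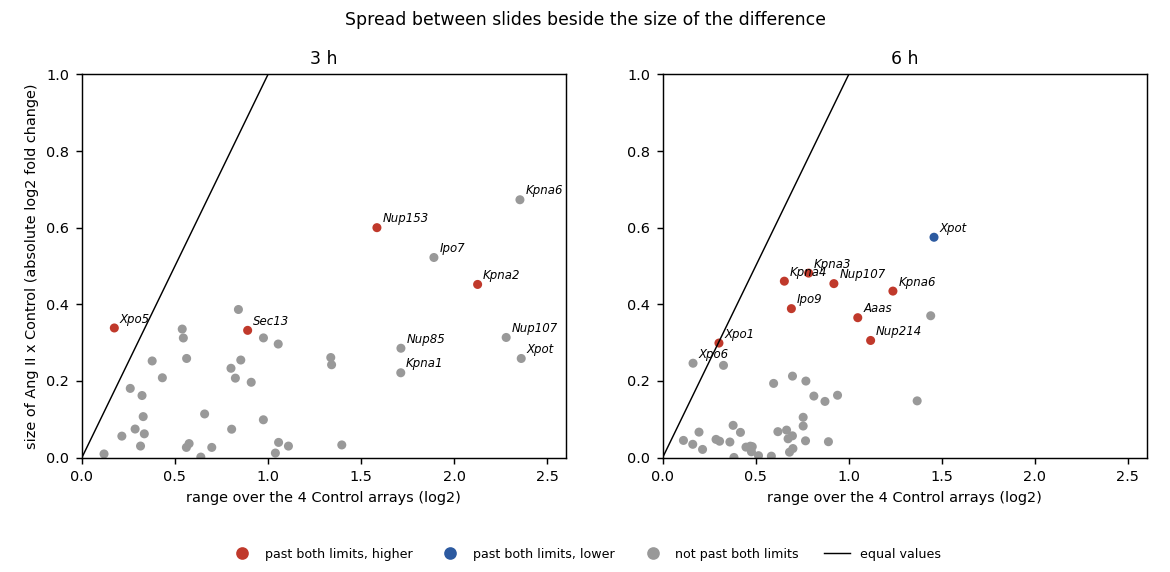
Each point is a pore or transport gene at 3 h (left) or 6 h (right), with the range of its 4 Control arrays on the x axis and the absolute log2 fold change of Ang II x Control on the y axis. All points but Xpo5 at 3 h and Xpo6 at 6 h lie below the line of equal values, and colours mark the genes past both limits.

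At 3 h, Ang II x Control had 4 of the 43 genes past both limits, all higher with Ang II: Kpna2, Sec13, Xpo5 and Nup153. This is 9.3% of the genes, beside 11% of all genes past both limits in either direction and 4.99% higher. None of the pore and transport genes was lower, beside 5.98% of all genes. Without regard to the limits, 33 of the 43 genes had a log2 fold change above 0, beside 50.3% of all genes, and the median was 0.16, beside 0.00 over all genes. The median was 0.093 without replicate 2, and 0.090 with scaling to the 75th percentile, where 26 genes lay above 0. Ranbp2, which counts among those above 0, entered through the Ang II group alone. It was well above background on 4 Ang II arrays, 0 of Control and 1 of each antagonist group. With only probes well above background on all 16 arrays, 29 of 40 genes lay above 0 and the median was 0.10. No gene on the array had an adjusted p under 0.05 in this limma comparison, where 723 genes were higher and 1009 lower at an unadjusted p under 0.05.

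**Figure D2:**
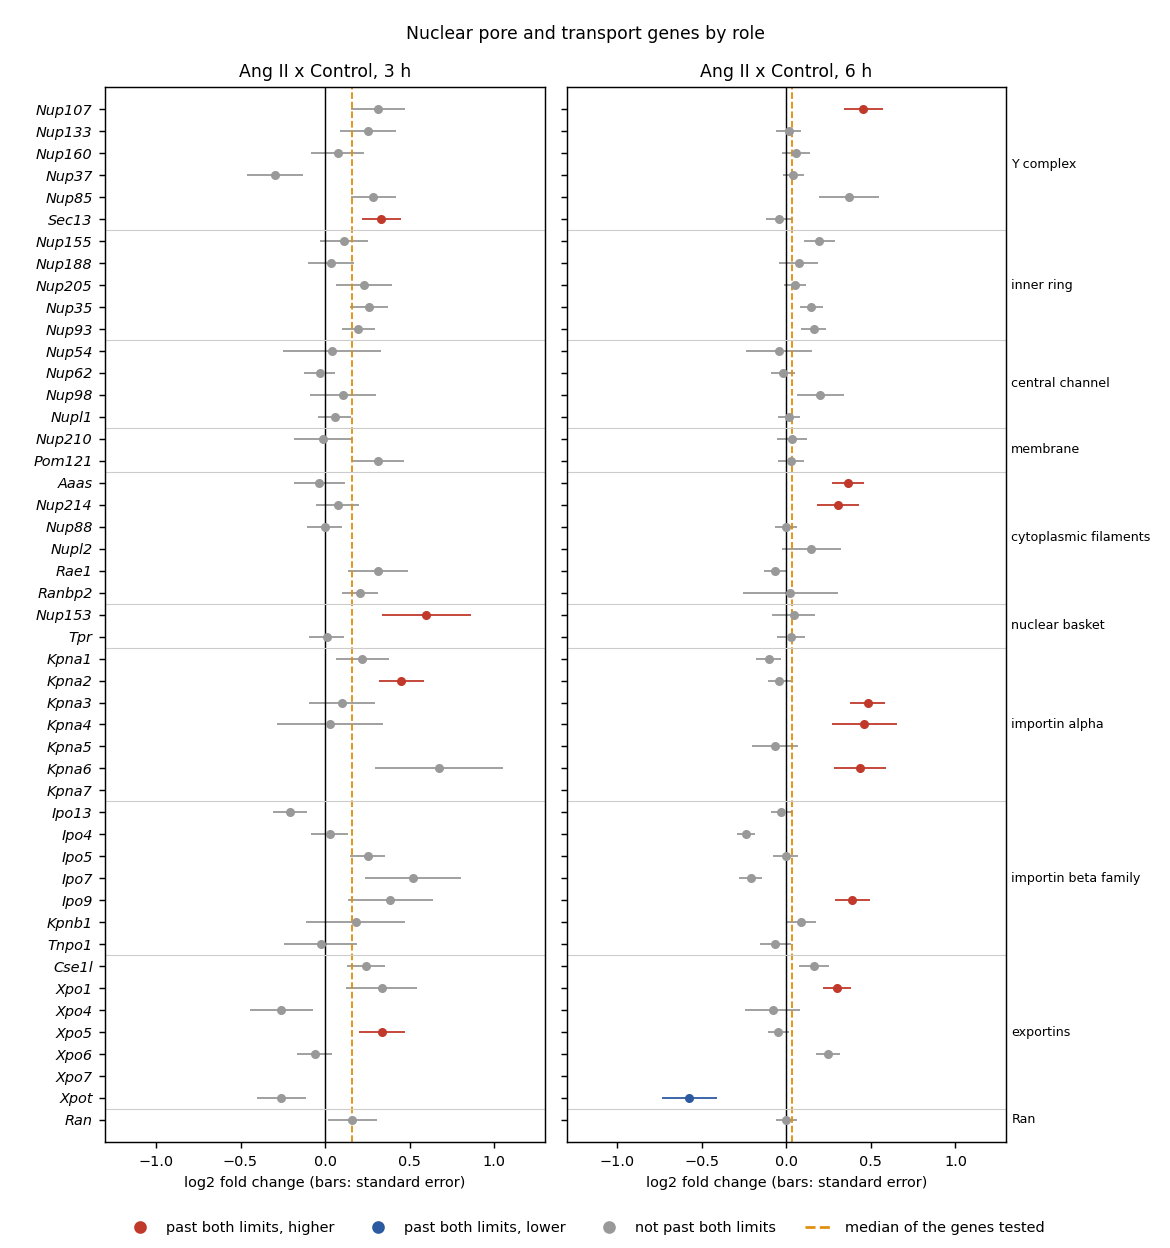
Log2 fold changes of Ang II x Control at 3 h and 6 h for each pore and transport gene, ordered by role, with the standard error as a bar and the median of the genes as a dashed line. The median is 0.16 at 3 h and 0.03 at 6 h, 4 genes are past both limits at 3 h and 9 at 6 h, and genes without a point were not tested.

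Kpna2, one of the adapters that read import signals, measured 13.56, 12.59, 11.44 and 12.94 in Control replicates 1 to 4 and 13.64, 13.41, 11.69 and 13.59 with Ang II. Ang II was higher on all 4 slides, although the groups overlap because the slides differ so much. The difference was 0.45 ± 0.13 on the log2 scale (SE, n = 4; limma, adjusted p = 0.322).

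Sec13, a Y complex protein that also belongs to the coat of vesicles leaving the endoplasmic reticulum, measured 11.48, 11.37, 10.59 and 11.31 in Control and 11.71, 11.90, 10.97 and 11.50 with Ang II. It was higher on all 4 slides, by 0.33 ± 0.12 (SE, n = 4; limma, adjusted p = 0.338), and the groups overlap. Xpo5, which exports precursors of microRNAs, measured 9.08, 9.16, 9.25 and 9.19 in Control and 9.30, 9.87, 9.34 and 9.51 with Ang II. Its groups do not overlap, which held for 0.411% of all genes in this direction. Ang II x Control measured 0.34 ± 0.13 for it (SE, n = 4; limma, adjusted p = 0.365). Of its 2 probes, the one printed above passed both limits at 0.43 and the other measured 0.25.

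Nup153, a protein of the nuclear basket, rested on 1 slide. Its Control values were 9.30, 8.01, 9.53 and 9.59 and its Ang II values 9.70, 9.95, 9.64 and 9.54, so that replicate 2 of Control lies far below the other arrays and replicate 4 went the other way. Its log2 fold change of 0.60 ± 0.26 (SE, n = 4; limma, adjusted p = 0.38) did not pass without replicate 2, at 0.15. Nor did those of Sec13 and Xpo5, at 0.26 and 0.21. Kpna2 passed without replicate 2, at 0.33, and did not without replicate 4, at 0.39. Calls were also lost for Sec13 without replicate 3 at 0.32, for Xpo5 without replicate 4 at 0.34 and for Nup153 without replicate 1 at 0.67. Without replicate 1, 8 of the pore and transport genes passed both limits in place of 4, and without replicate 2 only 1 did. Among all genes tested, 1773 passed without replicate 1 and 751 without replicate 2, in place of 1495.

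**Figure D3:**
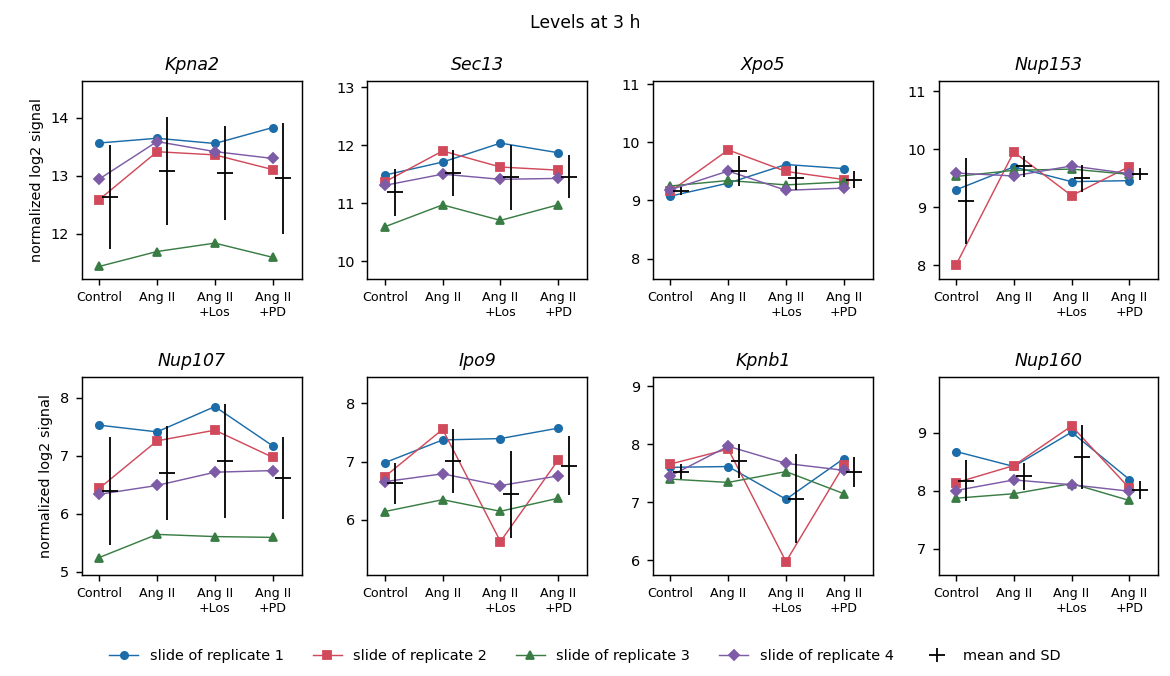
Normalized log2 signal at 3 h of 8 pore and transport genes in the 4 groups, with the 4 arrays of a slide joined by a line and the mean and SD of each group in black. The lines of Kpna2 and Nup107 lie far apart between slides, and single arrays of replicate 2 set Nup153 in Control and Ipo9 and Kpnb1 in Ang II+Los apart.

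By role, the Y complex had 5 of 6 genes above 0 at 3 h with a median of 0.27, and the inner ring all 5 with a median of 0.20. Nup107 itself measured 0.31 ± 0.16 (SE, n = 4; limma, adjusted p = 0.417), higher with Ang II on 3 of 4 slides. In the inner ring the largest difference was that of Nup35, at 0.26 ± 0.11, just inside the fold limit. The 4 genes of the central channel lay between -0.03 and 0.11, the largest being Nup98, a mobile nucleoporin with repeats. Of the membrane proteins that anchor the pore, Pom121 measured 0.31 ± 0.15 and Nup210 was at -0.01. Rae1, which takes part in the export of messenger RNA, had the largest difference on the cytoplasmic side, 0.31 ± 0.18. Ran measured 0.16 ± 0.15, from a fit without its missing Control value. None of Nup107, Nup35, Nup98, Pom121, Rae1 and Ran passed both limits.

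Among the carriers at 3 h, all 5 importins alpha tested lay above 0, beside 50.3% of all genes, and Kpna2 alone passed. Kpna1 is the mean of 2 probes that disagree, at 0.50 and -0.05. The largest of the importins alpha was Kpna6, at 0.67 ± 0.38 (SE, n = 4), which did not pass and is also a mean of 2 such probes. Its pair differences were -0.02, 2.30, 0.14 and 0.27. The probe printed above measured 1.57 and passed both limits, while the other, above background on all 16 arrays, measured -0.23. The printed probe was well above background on 12 of the 16 arrays. These were 4 each with Ang II and with PD123319, through which it entered, and 2 each in Control and with Losartan. In the importin beta family the largest was Ipo7, a carrier of ribosomal proteins, at 0.52 ± 0.28, from a fit without its missing Control value, and 1 slide set it apart: the differences were 0.01, 0.02 and 1.62 on the slides of replicates 2, 3 and 4. Ipo5 has 3 probes, of which 1 passed both limits at 0.35 and the others measured 0.38 and 0.03. The exportins were split, 3 of 6 above 0, with Xpo4 and Xpot both at -0.26.

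At 6 h, Ang II x Control had 9 of the 45 genes past both limits, 8 higher and 1 lower, which is 20% of the genes beside 11.5% of all genes, of which 4.68% were lower. The higher ones were 17.8%, beside 6.78% of all genes, and were Kpna3, Nup107, Aaas, Ipo9, Xpo1, Kpna6, Nup214 and Kpna4. The lower one was Xpot. An adjusted p under 0.10 by limma was reached by 4 of the 45 genes, namely Kpna3, Ipo4, Nup107 and Aaas, beside 2.33% of all genes, and an adjusted p under 0.05 by no gene on the array, of which 1750 were higher and 1785 lower at an unadjusted p under 0.05. The median over the 45 genes was 0.03, and 28 lay above 0 (62.2%, beside 48.7% of all genes).

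Kpna3, an importin alpha, measured 5.74, 5.88, 6.30 and 6.52 in Control replicates 1 to 4 and 6.52, 6.25, 6.76 and 6.83 with Ang II. It was higher on all 4 slides, by 0.31 to 0.78, although the groups overlap. The log2 fold change was 0.48 ± 0.10 (SE, n = 4; limma, adjusted p = 0.0676), a fold change of 1.40. Its relatives Kpna4 and Kpna6 passed too, at 0.46 ± 0.19 and 0.43 ± 0.16, while Kpna1, Kpna2 and Kpna5 lay at -0.11, -0.04 and -0.07. Both probes of Kpna6 passed at 6 h, at 0.39 and 0.48. Kpna4 was higher on all 4 slides but by amounts between 0.02 and 1.15.

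Nup107 measured 7.73, 7.00, 7.92 and 7.27 in Control at 6 h and 8.27, 7.47, 8.25 and 7.74 with Ang II. Every slide had the higher value with Ang II, by 0.33 to 0.54, which is a narrow range beside the 0.92 that the Control arrays span. Its log2 fold change was 0.45 ± 0.12 (SE, n = 4; limma, adjusted p = 0.0964). The other 5 genes of the Y complex did not pass: Nup85 was at 0.37 ± 0.18, from differences between -0.17 and 0.92, and Nup133, Nup160, Nup37 and Sec13 lay between -0.04 and 0.06.

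Aaas, which encodes ALADIN of the cytoplasmic side, measured 8.83, 8.46, 9.40 and 8.36 in Control and 9.23, 8.93, 9.43 and 8.92 with Ang II. The difference was 0.40 or more on 3 slides and 0.02 on the slide of replicate 3, where Control was highest. Over the slides it was 0.37 ± 0.09 (SE, n = 4; limma, adjusted p = 0.0988). Nup214, also on the cytoplasmic side, passed at 0.31 ± 0.12 and was lower with Ang II on the slide of replicate 3. Rae1, Ranbp2, Nup88 and Nupl2 did not pass.

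In the inner ring all 5 genes lay above 0 with a median of 0.15, and none passed both limits. Nup155 was the largest at 0.19 ± 0.09. Nup98 was at 0.20 ± 0.14, and its 2 probes disagree, with 0.51 past both limits for one and -0.11 for the other. Nup210 at 0.03, Nup153 at 0.04 and Ran at 0.00 were the largest of the membrane, basket and Ran groups and did not pass.

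In the importin beta family, Ipo9, a carrier of histones and actin, measured 7.43, 7.19, 7.78 and 7.09 in Control and 8.05, 7.47, 7.98 and 7.55 with Ang II. It was higher on all 4 slides, by 0.39 ± 0.10 (SE, n = 4; limma, adjusted p = 0.104). Ipo4, another carrier of histones and ribosomal proteins, went the other way: it measured 11.74, 12.05, 11.80 and 12.06 in Control and 11.47, 11.73, 11.70 and 11.77 with Ang II. It was lower on all 4 slides and at -0.24 ± 0.05 (SE, n = 4; limma, adjusted p = 0.0802), a difference that the test picks out and that is too small for the fold limit. Ipo7 was likewise lower on all 4 slides, at -0.21 ± 0.07, inside the fold limit.

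Xpo1 (CRM1), the main exporter of proteins with a leucine-rich signal, measured 10.85, 10.55, 10.84 and 10.63 in Control and 11.13, 10.74, 11.26 and 10.93 with Ang II. It was higher on all 4 slides, by 0.30 ± 0.08 (SE, n = 4; limma, adjusted p = 0.105), and without replicate 3 it did not pass, at 0.26. Xpot measured 8.33, 9.68, 8.37 and 9.79 in Control and 7.97, 8.71, 8.38 and 8.81 with Ang II. The drop was close to 1 on the slides of replicates 2 and 4, where Control was high, 0.36 on that of replicate 1, and the 2 values on that of replicate 3 were level. Over the slides Xpot was at -0.57 ± 0.16 (SE, n = 4; limma, adjusted p = 0.114), and its 2 probes, which lie far apart in the gene, gave -0.60 and -0.55. Xpo6, an exporter of actin, was higher without overlap of the groups, at 0.25 ± 0.07, inside the fold limit; such a separation was seen in 0.815% of all genes. That value and the separation are those of the mean of its 2 probes. One of them passed at 0.34 and entered the tests through the Ang II group alone. It was well above background on 4 Ang II arrays and on 3 of each other group. The other probe, above background on all 16 arrays, measured 0.15 and did not pass.

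**Figure D4:**
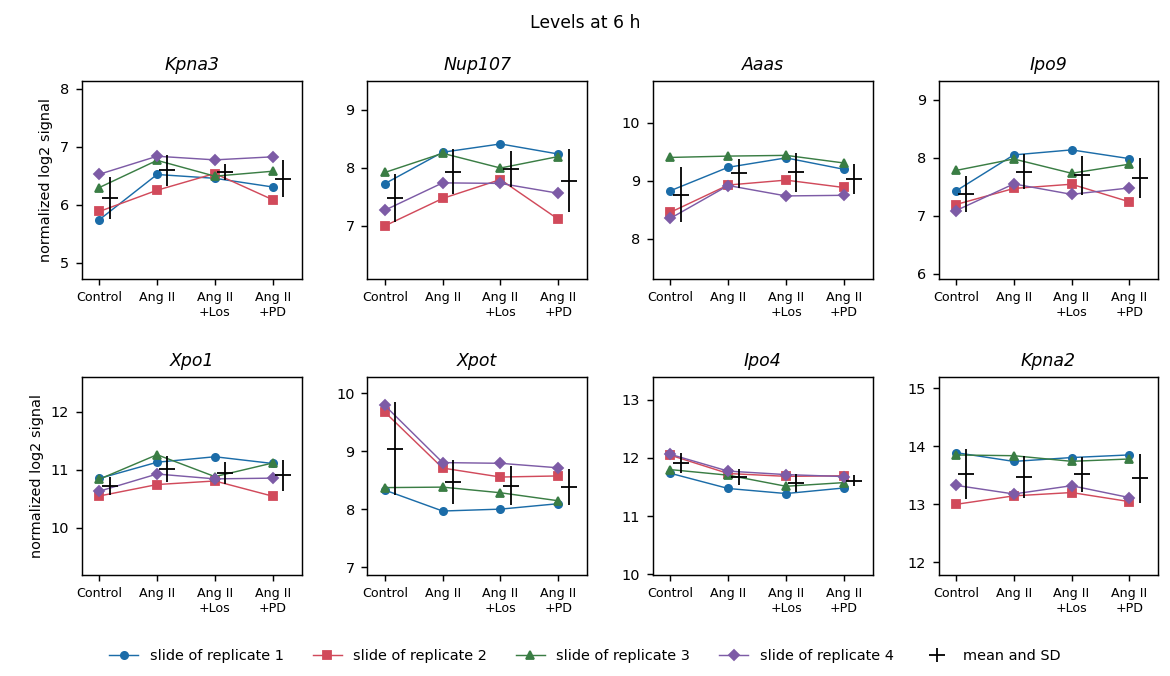
Normalized log2 signal at 6 h of 8 pore and transport genes in the 4 groups, with the 4 arrays of a slide joined by a line and the mean and SD of each group in black. Kpna3, Nup107, Aaas, Ipo9 and Xpo1 lie lowest in Control on nearly every slide and Xpot and Ipo4 highest, while Kpna2 is level.

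The 2 times were set side by side. Of the 43 genes tested at both, 23 had a log2 fold change above 0 at both and 6 below 0 at both, and 0 passed both limits at both. Ipo9 and Nup93, a scaffold protein of the inner ring, were the genes above 0 on all 4 slides of both times. These counts were not made over all genes, of which 11% passed both limits at 3 h and 11.5% at 6 h. They therefore show nothing particular to the pore and transport genes. The difference between the times was tested with all 32 arrays. An unadjusted p under 0.05 was found for 7 of the 43 genes, beside 7.1% of all genes, and the lowest adjusted p among the 43 was 0.686 by limma. Those 7 were Kpna2, Sec13, Ipo7, Xpo5, Ipo4 and Ipo5, with a lower log2 fold change at 6 h, and Aaas, with a higher one. For Kpna2 the difference was -0.49 ± 0.14 (SE) and for Aaas 0.41 ± 0.18. With scaling to the 75th percentile in place of the loess, 5 genes had such a p.

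Adding Losartan to Ang II was compared with Ang II alone, and this comparison shares the Ang II arrays with Ang II x Control. At 3 h, 3 of the 43 genes passed both limits, beside 10.2% of all genes: Ipo9 and Kpnb1 were lower and Nup160 was higher with Losartan. Ipo9 measured 7.37, 7.56, 6.34 and 6.79 with Ang II and 7.40, 5.62, 6.14 and 6.59 with Ang II+Los. Kpnb1, the importin beta that carries the importins alpha, measured 7.61, 7.91, 7.34 and 7.96 with Ang II and 7.05, 5.98, 7.53 and 7.67 with Ang II+Los. In both genes replicate 2 of Ang II+Los lies far below all other arrays, with differences of -1.93 and -1.94 on that slide, and the groups overlap. The log2 fold changes were -0.58 ± 0.25 and -0.65 ± 0.29 (SE, n = 4; limma, adjusted p = 0.426 for each). Nup160 of the Y complex measured 8.42, 8.44, 7.95 and 8.19 with Ang II and 9.01, 9.12, 8.13 and 8.11 with Ang II+Los, which is 0.34 ± 0.16 (SE, n = 4; limma, adjusted p = 0.426) and higher on 3 of 4 slides. Without replicate 2, 0 of the genes passed, with Ipo9 at -0.13, Kpnb1 at -0.22 and Nup160 at 0.23. Among all genes tested, 222 passed without replicate 2, in place of 1386. Before normalization, the 75th percentile of the signal differed from the Ang II array by 0.47, -1.21, -0.51 and -0.06 (replicates 1 to 4). The part of this brightness in the calls was not tested. The calls were also lost for Ipo9 without replicate 3 or 4 (-0.70 each), for Kpnb1 without replicate 1 (-0.68) or 4 (-0.77), and for Nup160 without replicate 1 (0.26) or 3 (0.40). At 6 h, 0 of the 45 genes passed in Ang II+Los x Ang II, beside 0.9% of all genes, and 0 had an unadjusted p under 0.05, beside 0.815% of all genes higher and 1.18% lower. Above 0 lay 15 of the 45 (beside 49.5% of all genes), with a median of -0.043, and 22 of them without replicate 3, with a median of -0.0034. By slide the median was 0.04, 0.03, -0.14 and -0.03 for replicates 1 to 4, with brightness differences of -0.16, 0.16, -0.47 and 0.06. The part of brightness was not tested here either. Nup107 measured 8.41, 7.80, 7.995 and 7.73 with Ang II+Los, and its difference from Ang II was 0.05, with a 95% interval from -0.20 to 0.30.

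With PD123319 no pore or transport gene passed both limits against Ang II, beside 2.66% of all genes at 3 h and 3.79% at 6 h, and none passed under any of the 13 alternatives run. At an unadjusted p under 0.05 there were 0 too, beside 2.11% of all genes higher and 0.902% lower at 3 h and 3.88% and 2.49% at 6 h. The genes leaned to one side, in a comparison that uses the same Ang II arrays as Ang II x Control. Only 6 of 43 lay above 0 at 3 h, beside 44.7% of all genes, and 3 of 45 at 6 h, beside 48.5%. At 6 h, 13 genes were lower with PD123319 on all 4 slides, beside 11.4% of all genes. The sizes were small: the median was -0.12 at 3 h, beside -0.02 over all genes, and -0.08 at 6 h, beside -0.00. The 3 h median was -0.059 without replicate 2 and -0.074 without replicate 4. By slide at 3 h the median was 0.018, -0.19, -0.036 and -0.16 for replicates 1 to 4. Above 0 lay 23, 11, 14 and 9 of the 43 genes. On the same slides, the median of Ang II x Control was -0.01, 0.26, 0.01 and 0.22. The 75th percentile of the signal before normalization differed from that of the Ang II array by 0.03, -0.49, -0.15 and -0.26. By slide at 6 h, the median of PD123319 against Ang II was -0.00, -0.10, -0.07 and -0.07 for replicates 1 to 4. The brightness differences at 6 h were -0.13, 0.13, 0.12 and -0.54. The part of the shared arrays and of brightness in this lean was not tested. Nup107 measured 8.24, 7.11, 8.19 and 7.56 with PD123319 at 6 h, which is -0.16 from Ang II, with a 95% interval from -0.41 to 0.10. At 3 h its difference from Ang II was 0.20 with Losartan, with an interval from -0.14 to 0.55, and -0.08 with PD123319, with an interval from -0.43 to 0.27.

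Each antagonist group was also set against Control, and these comparisons share the Control arrays with Ang II x Control. Ang II+Los x Control at 3 h had 11 of the 43 genes past both limits, all higher, beside 20% of all genes in either direction and 9.9% higher. Of these, 4 are Y complex genes (Nup107, Nup160, Nup85 and Nup133), Nup93 and Nup35 belong to the inner ring, Rae1 to the cytoplasmic side, Kpna1 and Kpna2 are importins alpha, Cse1l returns importin alpha to the cytoplasm, and Ipo5 carries ribosomal proteins. Nup93 measured 10.67, 10.01, 9.77 and 10.07 in Control and 10.82, 10.60, 10.11 and 10.32 with Ang II+Los, higher on all 4 slides by 0.33 ± 0.10 (SE, n = 4; limma, adjusted p = 0.176). Nup107 was at 7.85, 7.44, 5.61 and 6.72 with Ang II+Los, higher on all 4 slides by 0.52 ± 0.16, with 1.00 on the slide of replicate 2. Nup85 measured 12.15, 11.25, 10.44 and 11.58 in Control and 12.28, 11.98, 10.53 and 12.12 with Ang II+Los, and Nup35 11.32, 10.42, 9.98 and 10.52 against 11.40, 11.19, 10.14 and 10.84. Both were higher on all 4 slides, by 0.37 ± 0.13 and 0.33 ± 0.11. Kpna2 measured 13.56, 13.36, 11.84 and 13.42 with Ang II+Los, a difference of 0.41 ± 0.13, and was level on the slide of replicate 1. Kpna1 measured 6.10, 7.50, 7.81 and 7.37 in Control and 7.16, 8.03, 8.002 and 7.28 with Ang II+Los, with differences from -0.09 to 1.06. Its 2 probes disagree, with 0.78 past both limits for one and 0.07 for the other. Of the 3 probes of Ipo5, 1 passed both limits at 0.41 and the others measured 0.11 and 0.29. Without replicate 2, 1 of the 43 genes passed, and Nup93, Nup107, Kpna2, Nup35, Nup85 and Kpna1 were at 0.25, 0.35, 0.29, 0.19, 0.25 and 0.39. Among all genes tested, 855 passed without replicate 2, in place of 2724. Kpna2, Nup35 and Nup85 also failed to pass without replicate 4, and Kpna1 without replicate 1, at 0.39, 0.34, 0.32 and 0.21.

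Ang II+PD123319 x Control at 3 h had 3 of 43 genes past both limits, beside 6.07% of all genes. Kpna2, at 13.83, 13.11, 11.59 and 13.30 with PD123319, and Sec13, at 11.87, 11.57, 10.97 and 11.43, were higher on all 4 slides, by 0.32 ± 0.13 and 0.27 ± 0.12. Xpot, at 7.83, 8.56, 9.81 and 9.04, was lower on 3 slides and at -0.37 ± 0.14. The adjusted p of these 3 by limma was 0.615 to 0.634, and without replicate 4 none of the 43 genes passed. Among all genes tested, 585 passed without replicate 4, in place of 827. Kpna2 also failed to pass without replicate 2 (0.26) or 3 (0.38), Sec13 without replicate 1 (0.23) or 3 (0.24), and Xpot without replicate 2 (-0.26).

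At 6 h, 9 of 45 genes passed both limits in Ang II+Los x Control, beside 11.4% of all genes, and 5 in Ang II+PD123319 x Control, beside 13.5%. Kpna3, Nup107, Aaas and Ipo9 were higher and Xpot was lower in both, and with Losartan Kpna4, Kpna6 and Nup85 were higher and Ipo4 was lower as well. Kpna3 measured 6.45, 6.54, 6.49 and 6.77 with Ang II+Los and 6.31, 6.09, 6.58 and 6.82 with PD123319, which is 0.45 and 0.34 above Control. Aaas measured 9.40, 9.01, 9.44 and 8.74 with Ang II+Los and 9.20, 8.89, 9.31 and 8.75 with PD123319, and Ipo9 8.14, 7.54, 7.73 and 7.37 and 7.98, 7.24, 7.89 and 7.48. Nup107 was 0.51 above Control with Losartan and 0.30 with PD123319. Without replicate 1, Ipo9 did not pass with Losartan, at 0.19, nor did Kpna3, Aaas, Ipo9 and Nup107 with PD123319, at 0.26, 0.24, 0.18 and 0.23. Aaas, Ipo9 and Nup107 with PD123319 did not pass without replicate 4 either, at 0.23, 0.24 and 0.30, nor Aaas without replicate 2, at 0.22. Xpot measured 8.004, 8.56, 8.29 and 8.79 with Ang II+Los and 8.10, 8.58, 8.15 and 8.72 with PD123319, at -0.63 ± 0.16 and -0.66 ± 0.16. In the 3 groups that had Ang II, the SD of Xpot was 0.31 to 0.38, beside 0.80 in Control.

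Ipo4 was the only pore or transport gene with an adjusted p under 0.05 in any of the 10 comparisons. It measured 11.39, 11.68, 11.51 and 11.71 with Ang II+Los at 6 h and 11.48, 11.69, 11.58 and 11.68 with PD123319, and in neither did the group overlap with Control, where the lowest value was 11.74. The log2 fold change was -0.34 ± 0.05 (SE, n = 4; limma, adjusted p = 0.0352) with Losartan, past both limits, and -0.30 ± 0.05 (SE, n = 4; limma, adjusted p = 0.0348) with PD123319, inside the fold limit. Groups that did not overlap and were lower made up 0.766% of all genes in the first comparison and 1.37% in the second, and an adjusted p under 0.05 was reached by 1.36% and 1.38%. The number of pore and transport genes with such an adjusted p was 0 in both comparisons without replicate 2, without replicate 4, with no filter and with no replicate block, and 0 with Losartan without replicate 1. It was 6 with Losartan without replicate 3, 4 there with deposited values or a strict filter, and at most 2 with PD123319 under any alternative. The count over all genes moved as well, from 224 with Losartan and 227 with PD123319. Where 0 pore and transport genes are given above, it was at most 3 with Losartan and 5 with PD123319. With Losartan it was 799 without replicate 3, 301 with deposited values and 426 with the strict filter.

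**Figure D5:**
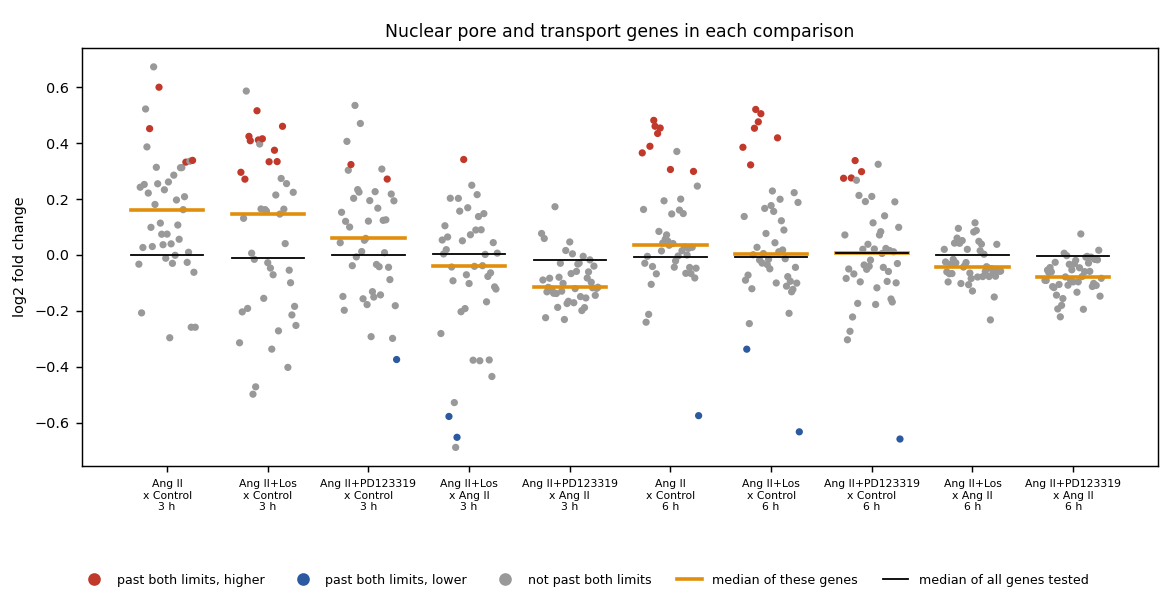
Log2 fold changes of the pore and transport genes in the 10 comparisons, 1 point per gene in alphabetical order, with the median of these genes in orange and that of all genes tested in black. Nearly all points of Ang II+PD123319 x Ang II lie below 0 at both times, and no point of it is past both limits.

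The overall lean at 3 h was uneven between slides. In Ang II x Control, the median over the genes was -0.01, 0.26, 0.01 and 0.22 on the slides of replicates 1 to 4, with 20 of 41, 32 of 43, 23 of 43 and 34 of 43 genes above 0. By scan, the median was 0.14 in scan 1 (replicates 1 and 2) and 0.12 in scan 2 (replicates 3 and 4). The 75th percentile of the signal before normalization was higher on the Ang II array than on the Control array of every slide, by 0.47, 0.98, 0.19 and 0.37 on the log2 scale, and its part in the lean was not tested. At 6 h the slides had medians of 0.03, 0.10, 0.03 and 0.02, with brightness differences of -0.16, 0.10, 0.20 and 0.04.

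Other genes of nuclear transport were looked at from a list of 41 names, of which 32 are on the array and 28 were tested at 3 h and 30 at 6 h. In Ang II x Control at 3 h, 0 of 28 passed both limits, beside 11% of all genes, with 21 above 0 and a median of 0.11. At 6 h, 3 of 30 passed, a share close to the 11.5% of all genes. Thoc3, of the THO complex that couples transcription to messenger RNA export, was higher by 0.29 ± 0.07, and Lmnb1, the lamin B1 of the nuclear lamina on which pores are spaced, by 0.38 ± 0.11, both on all 4 slides. Thoc6 of the same THO complex was lower on all 4 slides, at -0.35 ± 0.13. Against Ang II alone, Losartan at 3 h had Ahctf1 (ELYS, which seeds pores on chromatin) higher and Bat1 and Thoc5 lower, 3 of 28 beside 10.2% of all genes, and at 6 h none of the 30 passed with either antagonist.

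Promoters from RefSeq (build GRCr8, 300 bases each around the start of the gene) were given for 41 of the 47 genes. There was none for Kpna1, Kpna3, Kpnb1, Nup107, Xpo7 and Xpot. Known short motifs were searched in them on both strands, and the shares are descriptions only. For these genes the first promoter given was read. The shares over all genes count every promoter given, also where a gene has several, and are not limited to genes on the array. The GC box GGGCGG was in 63.4% of the 41 promoters, beside 33.1% of 33469 promoters of all genes. The CCAAT box was in 46.3%, beside 37.5%. The ETS site CCGGAAG was in 17.1% beside 8.75%, the E-box CACGTG in 14.6% beside 6.42%, the E2F sites TTCGCGC and TTGGCGC in 12.2% beside 3.66%, and the NRF1 core GCATGCG in 9.76% beside 3.33%. Of the 4 genes that passed at 3 h with Ang II against Control, Nup153 has none of these letters in its window, and the other 3 are printed with the motifs in capitals, all on the minus strand.

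Kpna2, chr10:92445792-92446091: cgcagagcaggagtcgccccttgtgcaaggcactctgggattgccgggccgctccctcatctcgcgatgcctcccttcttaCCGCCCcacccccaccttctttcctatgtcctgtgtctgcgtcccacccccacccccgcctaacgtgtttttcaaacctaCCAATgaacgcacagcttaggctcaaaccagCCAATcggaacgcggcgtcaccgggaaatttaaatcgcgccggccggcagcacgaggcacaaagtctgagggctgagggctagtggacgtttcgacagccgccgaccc
Sec13, chr4:148446686-148446985: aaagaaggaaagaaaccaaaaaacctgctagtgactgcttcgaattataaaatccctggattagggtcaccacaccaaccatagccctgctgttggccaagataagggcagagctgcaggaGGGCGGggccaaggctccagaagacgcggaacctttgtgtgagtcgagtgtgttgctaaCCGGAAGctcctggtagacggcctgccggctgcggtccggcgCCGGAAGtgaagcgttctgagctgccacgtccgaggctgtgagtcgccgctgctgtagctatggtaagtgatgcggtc
Xpo5, chr9:22275696-22275995: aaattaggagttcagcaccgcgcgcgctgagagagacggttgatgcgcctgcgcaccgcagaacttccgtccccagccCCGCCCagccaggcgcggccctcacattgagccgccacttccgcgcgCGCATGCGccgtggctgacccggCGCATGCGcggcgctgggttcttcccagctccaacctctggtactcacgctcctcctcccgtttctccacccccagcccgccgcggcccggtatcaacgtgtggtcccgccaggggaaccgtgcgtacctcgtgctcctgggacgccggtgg

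Kpna2 has 2 CCAAT boxes and 1 GC box, and Sec13 has 1 GC box and 2 ETS sites. Xpo5 has 1 GC box and 2 places with CGCATGCG, which reads as the NRF1 core on both strands. The 3 genes printed here thus share no motif other than the GC box, which 63.4% of the 41 promoters hold.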

How the data were processed

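The 32 arrays are 1-colour Agilent arrays of C6 cells, 4 per group. Per the file headers, the authors' scanner software (Agilent Feature Extraction 9.5.3.1) wrote a background-subtracted intensity per spot. The deposited log2 values equal the log2 of that intensity, with no scaling between arrays.

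The scanner intensity was used here. Outlier spots were left out, spots of a probe were averaged, and dim spots at 3 h took the error of the signal, as the 6 h files do. Log2 signals were normalized by cyclic loess (span 0.7, 3 iterations), probes with more than 2 gaps left out, and kept probes of a gene averaged. limma 3.58.1 in R 4.3.3 fitted the 16 arrays of a time, blocked by replicate number, and all 32 for the difference between times. The replicate number is the slide: same-numbered arrays deviated together in all 24 pairs of arrays per time (lowest correlation 0.149 at 3 h, 0.552 at 6 h). With the same number of arrays at each time, the standard errors over the pore and transport genes had a median of 0.15 at 3 h and 0.083 at 6 h.

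Values per array are given for Nup107 and, in each comparison, for up to 6 genes past both limits with the smallest p. In each role group the gene with the largest difference in Ang II x Control is named. The genes, lists and rules were chosen with earlier results of these data known. Genes were counted at a p under 0.05 and a fold above 1.2 or below 0.8, and the text of the study gives no fold limit. Alternatives were no block, other normalizations, background and filters, single probes, a plain paired t-test per gene (the study's text names t-tests for the arrays, and its GEO record calls them paired), the deposited values and each replicate left out. Figures used Python 3.11.15 and matplotlib 3.10.9. The enrichment, network and qPCR work of the study was not analysed here.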

Additional observations from a re-analysis of the deposited data

Results flagged for a closer look

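In 51 sets of 4 slide differences examined, 4 had 1 slide standing apart from the others by Dixon's test at the 95% level, and chance flags about 1 in 20 groups. Kpna6 in Ang II x Control at 3 h had a difference of 2.30 on the slide of replicate 2. Ipo9 at 3 h had one of -1.93 there for Losartan against Ang II, and Nup107 in Ang II+Los x Control at 3 h one of 1.00, also there. Aaas in Ang II+PD123319 x Control at 6 h had one of -0.10 on the slide of replicate 3, against 0.37 to 0.43 on the others.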

How the results depend on the processing

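The counts of pore and transport genes past both limits at 3 h were 4 for Ang II x Control, 3 for Losartan against Ang II, 11 for Losartan against Control and 3 for PD123319 against Control. With no replicate block these became 2, 1, 0 and 0, and with a paired t-test 1, 0, 2 and 2. Over all genes tested, the same 4 counts were 1495, 1386, 2724 and 827, then 351, 342, 652 and 119 with no replicate block and 658, 136, 331 and 521 with the paired t-test. At 6 h they were 9, 0, 9 and 5, and became 1, 0, 3 and 0 with no replicate block and 4, 0, 2 and 2 with the paired t-test. All genes had 1884, 148, 1881 and 2213 at 6 h, then 526, 35, 540 and 754 with no block and 731, 59, 604 and 655 with the paired t-test. For PD123319 against Control at 3 h, scaling to the 75th percentile, quantile normalization and the deposited values gave 1 each. All genes tested had 804, 953 and 562 there. Of the deposited values 38.2% are blank, and only probes with no blank at a time were used. They cover 34 of the pore and transport genes at 3 h and 37 at 6 h, so counts from them rest on fewer genes. The normexp background with an offset of 50 gave 5 for Ang II x Control and 1 for PD123319 against Control at 6 h. All genes tested had 756 and 985 in these comparisons at 6 h. With 1 replicate left out, the counts in the same order ran from 1 to 8, 0 to 2, 1 to 13 and 0 to 3 at 3 h, and from 7 to 8, 0 to 0, 8 to 12 and 2 to 7 at 6 h. Among all genes tested, the ranges were 751 to 1773, 222 to 1841, 855 to 3399 and 585 to 983 at 3 h. At 6 h they were 1224 to 2514, 114 to 423, 1144 to 2769 and 1311 to 3123. PD123319 against Ang II had 0 pore and transport genes in all of these alternatives. With the paired t-test, 0 pore and transport genes, and 0 of all genes tested, had an adjusted p under 0.05 in either comparison of an antagonist group with Control at 6 h. The time difference had 0 genes past an adjusted p of 0.05 with either scaling.

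Among single genes, the sign turned for Kpna6 at 3 h (Ang II x Control) when the filter was strict and when deposited values were used (-0.23 for each), both of which leave its second probe out. At 6 h in Ang II x Control, the sign of Ran, at 0.00, turned to 0.0087 with quantile normalization. With 1 replicate left out, Ran ran from -0.044 to 0.047, Nup153 from -0.072 to 0.16 and Nup210 from -0.017 to 0.12. In the same way Nup107 ran from -0.040 to 0.15 for Losartan against Ang II at 6 h, and Nup98 from -0.0022 to 0.19 in Ang II x Control at 3 h. The cause of these turns was not tested. Kpna3 at 6 h passed both limits in 12 of 13 alternatives in Ang II x Control and in Ang II+Los x Control, the exception being the normexp background. Nup107 passed in 12 of 13 in Ang II x Control at 6 h, the exception being the fit with no replicate block. Aaas, Ipo9 and Xpot passed there in 11 of 13 each. The calls of Aaas and Xpot were lost with no replicate block and with the paired t-test. That of Ipo9 was lost with no replicate block and with the normexp background. The median for Losartan against Ang II at 3 h was -0.04, and 0.07 with scaling to the 75th percentile. In Ang II x Control at 3 h it was 0.16, and 0.099 with quantile normalization and 0.10 with the normexp background, the strict filter or the deposited values.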
